A study of Mus musculus with 8 samples.

Results

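Yap1, Wwtr1, Tead1, Tead2, Tead3, Tead4, Ccn1, Ccn2, Ankrd1 and Amotl2, 10 genes of the YAP/TEAD transcription module, were measured in 4 mouse mammary tumour cell lines. They were taken by name as the rows of the gene count matrix whose Entrez identifiers carry these symbols, 10 of 27179 genes, and all 10 passed the filter on low counts and were among the 13913 genes tested. RNA-seq of cultured tumour cells was used, with 2 biological replicates of each of 4T1.2, 4T1, 66cl4 and 67NR, 8 libraries in all. The lines descend from one spontaneous mammary tumour of a BALB/c mouse, and all were untreated. As background, 4T1 spreads to many organs, 4T1.2 is a clone of 4T1 that forms bone metastases, 66cl4 spreads to the lung and 67NR forms primary tumours with little spread. A line is a single cultured population, so the p-values measure the spread between replicate libraries of these lines, and no group stands for a tumour in an animal. The labels spell 66cl4 with a digit (66c14). The study's methods give αMEM with fetal calf serum as the culture medium of all 4 lines, and the density of the cultures is not given in the sources used here.

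YAP (encoded by Yap1) and its paralogue TAZ (encoded by Wwtr1) are co-activators without a DNA-binding domain of their own, and reach DNA by binding the TEAD transcription factors. The kinases of the Hippo pathway phosphorylate YAP and TAZ, which holds them in the cytoplasm or sends them for degradation, so that an mRNA level does not report how much of either protein is in the nucleus. CCN1 (formerly CYR61) and CCN2 (formerly CTGF) are secreted matrix-associated proteins, and with Ankrd1 and Amotl2 their genes are among the most widely used transcriptional readouts of YAP/TEAD activity.

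TEAD factors bind the letters GGAATG, and its complement CATTCC. The sequence around each match before an annotated start of a co-activator or target gene is therefore shown. RefSeq promoter entries (GRCm38.p6) were matched for 7 of the 10 genes. There was no entry for Tead1, Tead4 and Ccn2. In the 250 bases before an annotated start, the motif was found on either strand for Yap1, Wwtr1, Tead3, Ccn1, Ankrd1 and Amotl2 and not for Tead2. By comparison, 14.4% of 27025 genes (12.6% of 32851 windows) held it. Each run below has 30 bases, read 5′ to 3′ on the strand of the gene, with the motif or its complement in capitals.
Yap1, chr9:8004720-8004749, minus strand: cgggagtctgcaGGAATGtagcgacgcgca
Wwtr1, chr3:57576029-57576058, minus strand: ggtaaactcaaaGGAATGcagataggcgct
Ccn1, chr3:145650071-145650100, minus strand: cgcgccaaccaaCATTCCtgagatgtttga
Ankrd1 upstream match, chr19:36120037-36120066, minus strand: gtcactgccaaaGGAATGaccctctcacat
Ankrd1 downstream match, chr19:36119950-36119979, minus strand: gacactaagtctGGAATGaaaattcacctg
Amotl2, chr9:102717727-102717756, plus strand: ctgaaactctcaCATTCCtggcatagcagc
The first base of the match lay 141 bases before the start for Yap1, 136 for Wwtr1, 103 for Ccn1, 210 and 123 for Ankrd1 and 65 for Amotl2. The Amotl2 window, 102717554 to 102717803, lies inside the span of the gene (102717091 to 102733418), so its annotated start is an internal one. The Yap1 window, 8004597 to 8004846, runs into the span of its gene (7931999 to 8004638), so the start used for Yap1 also lies inside the gene. In the GENCODE annotation, exons of the same gene cover all 250 bases of the Ankrd1 window and 136 bases of the Amotl2 window. These matches are a description of the letters, and binding was not measured. TGANTCA, the AP-1 motif (in 6.7% of windows), and the CArG box bound by SRF (in 1.5% of windows) were found in none of the windows of the 7 genes with an entry.

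The libraries held between 37159840 and 66269681 counts, and the biological coefficient of variation between replicates, 1 value common to all lines, was 9.74%. The epithelial markers Epcam (mean CPM 0.0137 in 67NR, 0 in 66cl4, 42.8 in 4T1 and 14 in 4T1.2) and Cdh1 (0.0759, 0.0997, 38.5 and 11.4) were near 0 in 66cl4 and 67NR, where Krt8 remained at 605 and 496 CPM. Krt18 was at 0.977 CPM in 67NR, 114 in 66cl4, 1023 in 4T1 and 583 in 4T1.2. The mesenchymal markers Cdh2 (94.2 CPM in 66cl4 and 81.9 in 67NR) and Zeb1 (62.6 and 64.2) were under 1 CPM in 4T1.2 and 4T1. Vim went the other way (1948 CPM in 67NR, 3277 in 66cl4, 5829 in 4T1 and 5455 in 4T1.2, log2 fold change 1.16, edgeR adjusted p = 2.74e-05). The mesenchymal list of 8 genes, to which Vim contributed most, summed to 5479 to 7511 CPM in the 4T1.2 and 4T1 libraries and 3437 to 5837 CPM in the others. Counted by gene, 1 of the 8 was higher and 6 were lower in 4T1 and 4T1.2 (87.5%, beside 76.7% of all genes). Their median log2 fold change was -1.92. Over the epithelial list of 8 genes, the summed level was 1476 to 2894 CPM in the 4T1.2 and 4T1 libraries and 465 to 720.2 CPM in the 66cl4 and 67NR libraries. Of the epithelial list, Esrp1 had no counts outside 67NR and Krt5 stayed at or below 0.114 CPM in every line. The leucocyte list of 6 genes summed to 4.02 to 5.46 CPM in 4T1.2 and 4T1 and 19.3 to 25.6 CPM in 66cl4 and 67NR. Lyz2 made up most of the latter (19.7 and 22.6 CPM, against 0.0529 in 4T1.2 and 0.0108 in 4T1). Ptprc was at or below 0.0264 CPM in every line. Of the 3 leucocyte genes tested, 2 went the other way and were higher in 4T1 and 4T1.2 (beside 38.1% of all genes). They were Cd68 (log2 fold change 0.97, edgeR adjusted p = 3.72e-05) and Itgam (2.04, edgeR adjusted p = 0.00509), with Itgam at or below 0.293 CPM in every line. The endothelial list of 5 genes summed to 0.83 to 3.7 CPM in 4T1.2 and 4T1 and 0.335 to 0.442 CPM in the others. These marker differences moved with the main comparison below, and their part in the results was not tested. In bulk RNA, fewer cells that express a gene and less RNA per cell cannot be told apart.

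Both co-activators were expressed in every line, with line means that differed by at most 1.48-fold for Yap1 and 1.34-fold for Wwtr1, in opposite orders. Levels between genes are compared as RPKM, which is counts per kilobase of gene, scaled to library size. Yap1 (chromosome 9, 7931999 to 8004638) was at 67.6 and 64.4 RPKM in 4T1.2, 66.6 and 58.3 in 4T1, 46.6 and 42.8 in 67NR, and 56.6 and 62.4 in 66cl4. The 67NR libraries were the lowest and did not overlap those of any other line, whereas 4T1 overlapped both 4T1.2 and 66cl4. Wwtr1 (chromosome 3, 57455644 to 57575910) was at 48.4 and 49.3 RPKM in 4T1.2, 60.3 and 58 in 4T1, 66.1 and 65.1 in 67NR, and 56.5 and 62.5 in 66cl4. It was lowest in 4T1.2 and highest in 67NR, the opposite end of the order from Yap1. The share of Yap1 in the summed RPKM of both genes was 58.3% and 56.6% in 4T1.2, 52.5% and 50.1% in 4T1, 50% in both 66cl4 libraries, and 41.4% and 39.7% in 67NR, while the sum stayed between 108 and 127 RPKM.

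**Figure D1:**
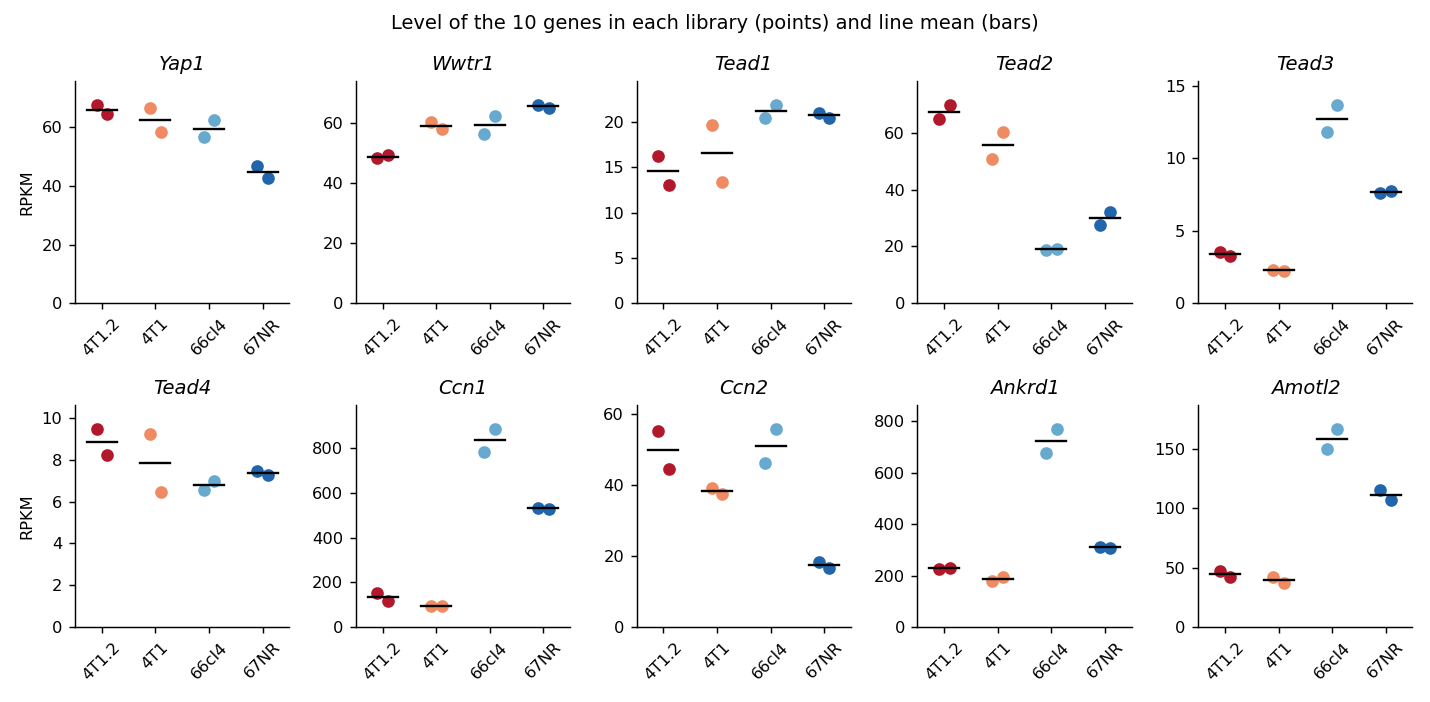
Level of each of the 10 genes (vertical axis, RPKM, from 0) in the 8 libraries, grouped by line (horizontal axis). Points are libraries and bars are the mean of 2 replicates. Ccn1, Ankrd1, Amotl2 and Tead3 were high in 66cl4 and 67NR, Tead2 was high in 4T1.2 and 4T1, and Ccn2 was lowest in 67NR.

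The main question was how the 4T1/4T1.2 pair differed from the 66cl4/67NR pair, tested with edgeR's quasi-likelihood test and adjusted by Benjamini-Hochberg over all 13913 genes. At an adjusted p under 0.05, 9 of the 10 genes differed, 3 higher (Yap1, Tead2 and Ccn2) and 6 lower (Wwtr1, Tead1, Tead3, Ccn1, Ankrd1 and Amotl2) in 4T1 and 4T1.2. This has to be read against a background in which 76.7% of all genes tested differed, with 38.1% higher and 38.6% lower. The median log2 fold change over the 10 genes was -0.32, beside -0.01 for all genes, and the median size was 0.87, beside 0.58. The 4 libraries of one pair did not overlap the 4 of the other for 6 of the genes, as was so for 55.5% of all genes. Yap1 was higher by 0.32 on the log2 scale (standard error, SE, 0.07, edgeR adjusted p = 0.00217) and Wwtr1 was lower, with a log2 fold change of -0.22 (SE 0.06, edgeR adjusted p = 0.00738), both with overlapping libraries. By single lines, Yap1 did not pass against 66cl4 in 4T1.2 (0.15, edgeR adjusted p = 0.2) or in 4T1 (0.07, edgeR adjusted p = 0.538). Wwtr1 in 4T1 did not pass against 66cl4 (-0.01, edgeR adjusted p = 0.932) or 67NR (-0.15, edgeR adjusted p = 0.14).

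The TEAD family, which supplies the DNA-binding partner, differed in its make-up between the pairs of lines. Tead2 (chromosome 7, 45215792 to 45233468) was at 64.8 and 69.8 RPKM in 4T1.2, 50.9 and 60.4 in 4T1, 27.7 and 32.2 in 67NR, and 18.9 and 19 in 66cl4. All 4 libraries of 4T1.2 and 4T1 lay above all 4 of the other lines, a 2.57-fold difference (log2 fold change 1.36, SE 0.08, edgeR adjusted p = 1.43e-07). Tead3 (chromosome 17, 28331671 to 28350805) went the other way, at 3.57 and 3.24 RPKM in 4T1.2, 2.32 and 2.23 in 4T1, 7.59 and 7.77 in 67NR, and 11.8 and 13.7 in 66cl4. It was 3.55-fold lower in 4T1 and 4T1.2 (log2 fold change -1.83, SE 0.08, edgeR adjusted p = 1.79e-08), and no line overlapped another.

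Tead1 (chromosome 7, 112679356 to 112906784) was at 16.2 and 13.1 RPKM in 4T1.2, 19.7 and 13.4 in 4T1, 21 and 20.5 in 67NR, and 20.5 and 21.9 in 66cl4. The lower values lay in 4T1.2 and 4T1, without overlap, but by a small margin (log2 fold change -0.43, SE 0.12, edgeR adjusted p = 0.00725). In 4T1 taken singly, Tead1 did not pass against 66cl4 (-0.36, edgeR adjusted p = 0.0792) or 67NR (-0.32, edgeR adjusted p = 0.108). Tead4 (chromosome 6, 128227143 to 128300813) was at 9.5 and 8.21 RPKM in 4T1.2, 9.25 and 6.46 in 4T1, 7.45 and 7.26 in 67NR, and 6.56 and 7 in 66cl4. Its difference did not pass the test (log2 fold change 0.24, 95% interval -0.01 to 0.49, edgeR adjusted p = 0.0736), and the replicates of 4T1 were further apart than any means of the lines. Without replicate 2 of 4T1, Tead4 was higher by 0.36 on the log2 scale (edgeR adjusted p = 0.00161).

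As a family on the RPKM scale, the TEAD genes summed to between 82.2 and 94.3 in the 4T1.2 and 4T1 libraries and between 57.9 and 67.7 in those of 66cl4 and 67NR. Tead2 made up 61.9% to 74% of this sum in 4T1.2 and 4T1, 30.8% to 32.7% in 66cl4 and 43.4% to 47.5% in 67NR. Tead1 made up 13.9% to 24% in 4T1.2 and 4T1 and 30.3% to 35.6% in the other lines. The share of Tead3 was 20.5% and 22.2% in 66cl4 and 11.9% and 11.5% in 67NR, and at most 3.79% in the 4T1.2 and 4T1 libraries. Tead4 kept a share between 7.83% and 11.7% in every library.

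**Figure D2:**
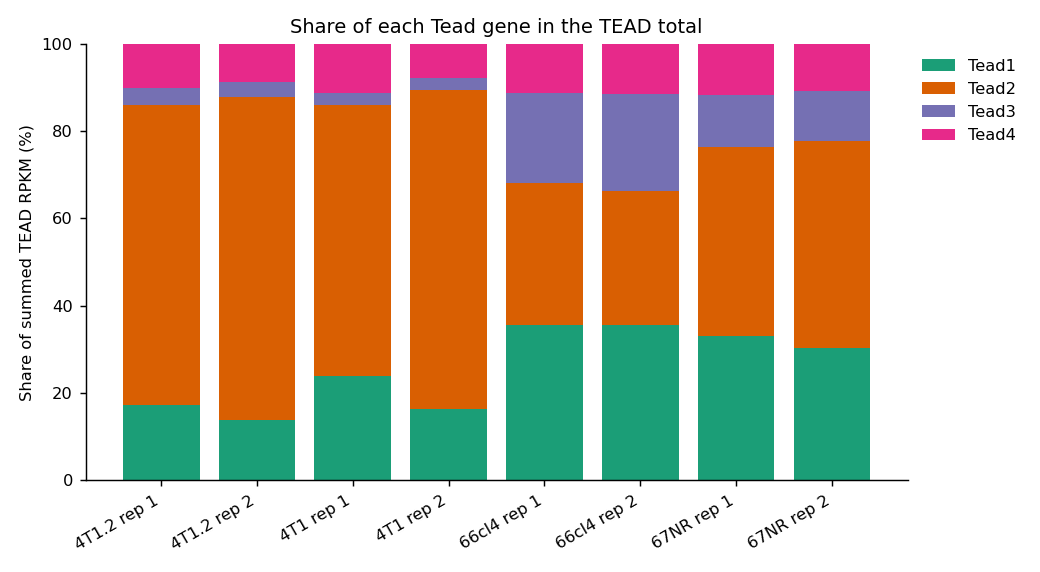
Share of Tead1, Tead2, Tead3 and Tead4 in their summed RPKM (vertical axis, percent) in each of the 8 libraries (horizontal axis). Tead2 fills at least 61.9% of each 4T1.2 and 4T1 bar and at most 47.5% of each 66cl4 and 67NR bar, where the Tead3 and Tead1 segments are wider.

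Ccn1, Ankrd1 and Amotl2, 3 of the 4 target genes, were lower in 4T1 and 4T1.2, and Ccn2 was not. Ccn1 (chromosome 3, 145646971 to 145649985) was at 154 and 117 RPKM in 4T1.2, 95.3 and 95.6 in 4T1, 535 and 530.1 in 67NR, and 785 and 889 in 66cl4. With n = 2 in each line, the mean ± SD was 837 ± 73.6 for 66cl4, 533 ± 3.58 for 67NR, 136 ± 25.8 for 4T1.2 and 95.5 ± 0.156 for 4T1. It had the widest range of the 10 genes, 8.77-fold from 66cl4 to 4T1, and was 5.87-fold lower in 4T1 and 4T1.2 (log2 fold change -2.55, SE 0.10, edgeR adjusted p = 4.93e-09).

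Ankrd1 (chromosome 19, 36111965 to 36119844), which encodes a muscle ankyrin repeat protein, was at 227 and 231 RPKM in 4T1.2, 177 and 196 in 4T1, 312 and 306 in 67NR, and 677 and 771 in 66cl4. Every library of 4T1 and 4T1.2 lay below those of the other lines (2.29-fold, log2 fold change -1.19, SE 0.07, edgeR adjusted p = 1.59e-07). Amotl2 (chromosome 9, 102717091 to 102733418), which encodes an angiomotin-like scaffold that binds YAP and is itself a target, was at 47.4 and 42.1 RPKM in 4T1.2, 42.3 and 37.3 in 4T1, 115 and 107 in 67NR, and 149.8 and 167 in 66cl4. It followed the same order and was 3.14-fold lower in 4T1 and 4T1.2 (log2 fold change -1.65, SE 0.08, edgeR adjusted p = 2.31e-08).

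Ccn2 (chromosome 10, 24595442 to 24598683) was at 55.3 and 44.5 RPKM in 4T1.2, 39.1 and 37.6 in 4T1, 18.4 and 16.5 in 67NR, and 46.3 and 55.9 in 66cl4. The 67NR libraries were far below the others, the 4T1 libraries lay between them and those of 4T1.2 and 66cl4 without overlap, and 4T1.2 and 66cl4 overlapped. The pooled difference of 0.55 on the log2 scale (SE 0.09, edgeR adjusted p = 3.10e-04) therefore averaged unlike lines: 4T1.2 differed from 67NR by 1.52 (edgeR adjusted p = 4.18e-06) and from 66cl4 by -0.03 (95% interval -0.32 to 0.25, edgeR adjusted p = 0.824). For 4T1 the corresponding values were 1.14 (edgeR adjusted p = 3.38e-05) and -0.41 (edgeR adjusted p = 0.0151, or 0.128 without replicate 2 of 66cl4). In RPKM, Ccn1 exceeded Ccn2 by 2.78 and 2.64 times in 4T1.2, 2.44 and 2.54 times in 4T1, 29.1 and 32.2 times in 67NR, and 16.9 and 15.9 times in 66cl4. The start of Ccn2 overlaps the long non-coding RNA Gm15270, with which 14.6% of its 75-base transcript stretches are shared, and whether the counting used strand is not stated.

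Between 66cl4 and 67NR, all 4 target genes and Yap1 were higher in 66cl4. Of the 10 genes, 7 differed at an adjusted p under 0.05, beside 44.6% of all genes. Yap1, Tead3, Ccn1, Ccn2, Ankrd1 and Amotl2 were higher in 66cl4 (22.3% of all genes) and Tead2 was lower (22.4%). The libraries of the lines did not overlap for 9 of the 10, beside 75.3% of all genes. The median log2 fold change of the 10 genes was 0.46, beside 0.00 for all genes. Ccn2 was 2.93-fold higher in 66cl4 (log2 fold change 1.55, SE 0.13, edgeR adjusted p = 1.46e-05) and Ankrd1 2.34-fold higher (1.23, SE 0.10, edgeR adjusted p = 1.16e-05). Smaller differences were seen for Tead3 (0.73, SE 0.11, edgeR adjusted p = 5.17e-04), Ccn1 (0.65, SE 0.13, edgeR adjusted p = 0.00271) and Amotl2 (0.51, SE 0.11, edgeR adjusted p = 0.00326). Tead2 had a log2 fold change of -0.66 (SE 0.11, edgeR adjusted p = 0.00108). Yap1 was higher by 0.41 (SE 0.10, edgeR adjusted p = 0.00781), a call that was lost without replicate 2 of 66cl4 (edgeR adjusted p = 0.0551) or replicate 2 of 67NR (0.0825). For Wwtr1 (-0.14, 95% interval -0.33 to 0.05), Tead1 (0.03, -0.34 to 0.40) and Tead4 (-0.12, -0.47 to 0.24) no difference passed the test.

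The clone 4T1.2 and its parent 4T1 differed in fewer genes. Here 3 of the 10 genes differed, beside 19.3% of all genes, with 2 higher in 4T1.2 (9.37% of all genes) and 1 lower (9.9%). For 6 of the 10 the libraries of the lines did not overlap, beside 54.5% of all genes. Tead3 was 1.49-fold higher in 4T1.2 (log2 fold change 0.58, SE 0.12, edgeR adjusted p = 0.00764), Ccn1 was 1.42-fold higher (0.51, SE 0.13, edgeR adjusted p = 0.0232) and Wwtr1 was lower (-0.28, SE 0.08, edgeR adjusted p = 0.0469). None of these calls held without replicate 1 of 4T1.2, where Tead3 was at 0.51 (edgeR adjusted p = 0.0598) and Wwtr1 at -0.26 (0.203), and Ccn1 fell to 0.30 (0.181). The call of Ccn1 was also lost, at the same size of 0.51, without either library of 67NR (edgeR adjusted p = 0.0517 and 0.0515) or with only the libraries compared (0.0668). That of Wwtr1 was lost, at log2 fold changes of -0.30 to -0.25, without any one library of 4T1.2, 4T1 or 67NR (edgeR adjusted p from 0.0593 to 0.203), with no filter on low counts (0.0624), with no removal by annotation (0.0638) and with only the libraries compared (0.115). Among the others, Ccn2 (0.38, 95% interval 0.09 to 0.67, edgeR adjusted p = 0.0665), Ankrd1 (0.29, 0.07 to 0.52, edgeR adjusted p = 0.0663) and Tead2 (0.28, 0.03 to 0.52, edgeR adjusted p = 0.116) had intervals above 0 but did not pass after adjustment, and the values of Yap1 (0.08) and Amotl2 (0.17) were smaller. Without replicate 2 of 4T1, 5 of the 10 genes passed.

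**Figure D3:**
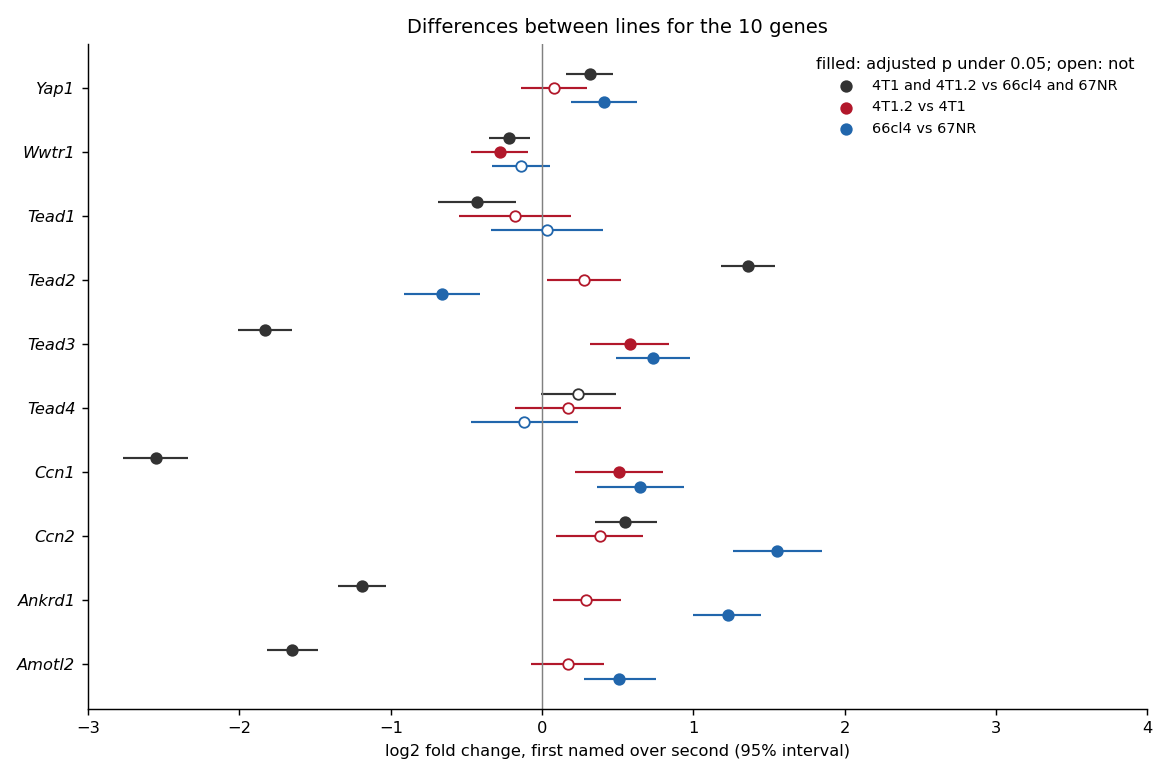
Log2 fold change (horizontal axis, first named over second) with its 95% interval for each of the 10 genes (vertical axis) in 3 comparisons, shown by colour. Filled points passed an adjusted p under 0.05 and open points did not. Ccn1, Amotl2, Tead3 and Ankrd1 lie far to the left in the pooled comparison (-2.55 to -1.19) and to the right between 66cl4 and 67NR, and Ccn2 is farthest right in the latter at 1.55.

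The remaining comparisons of single lines share these libraries, and each is given on its own. Against 66cl4, 7 of the 10 genes differed in 4T1.2 (beside 68.8% of all genes, 34.3% higher and 34.5% lower) and 6 in 4T1 (beside 70%, 34.9% higher and 35.2% lower), in each case with Tead2 as the only one higher. The libraries did not overlap for 9 and 7 of the 10 genes, beside 85.1% and 83.1% of all genes. Tead2 was 3.55-fold higher in 4T1.2 and 2.93-fold higher in 4T1 than in 66cl4. Ccn1 was 6.17-fold and Amotl2 3.54-fold lower in 4T1.2 than in 66cl4. Against 67NR, 9 differed in 4T1.2 (beside 67.8% of all genes, 33.7% higher and 34.1% lower) and 7 in 4T1 (beside 68.2%, 33.8% higher and 34.4% lower), with Yap1, Tead2 and Ccn2 the 3 higher in both. The libraries did not overlap for 10 and 9 of the 10 genes, beside 86.4% and 84% of all genes. Ankrd1 was 1.35-fold lower in 4T1.2 than in 67NR (log2 fold change -0.43, SE 0.10, edgeR adjusted p = 0.00327).

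Ordering the lines by level placed Tead3, Ccn1, Ankrd1 and Amotl2 in one order, 66cl4 above 67NR above 4T1.2 above 4T1. For Tead3 and Ccn1 every step of this order passed the test, and for Ankrd1 and Amotl2 the last step, 4T1.2 over 4T1, did not. Ccn2 was ordered 66cl4, 4T1.2, 4T1 and 67NR, with only the last step passing. Yap1 was ordered 4T1.2, 4T1, 66cl4 and 67NR, and again only the step down to 67NR passed. Tead2 was ordered 4T1.2, 4T1, 67NR and 66cl4, with the first step not passing, and for Tead1 and Tead4 no neighbouring lines differed by the test. As a description over the 8 libraries, which fall into 4 lines of 2, Pearson's r of log2 CPM was 0.99 between Tead3 and Ccn1, 0.99 between Tead3 and Amotl2, -0.95 between Tead2 and Ccn1, 0.92 between Yap1 and Ccn2 and -0.54 between Yap1 and Ccn1. The genes most like Yap1 by this measure were Rap1gap2 (r = 0.9932), B4galt1 (0.9878) and Glyr1 (0.9858), and those most like Ccn2 were Plcd3 (0.9945), Fzd5 (0.9908) and Tmem143 (0.9823).

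The regulators around the module were then counted from a list of 28 genes, of which 25 were tested (Wtip, Vgll1 and Vgll2 were not). In 4T1 and 4T1.2, 6 were higher and 15 lower than in 66cl4 and 67NR (84%, beside 76.7% of all genes), with a median log2 fold change of -0.39. Among those higher were Amotl1 (log2 fold change 1.69, edgeR adjusted p = 1.11e-07), an angiomotin scaffold related to Amotl2, Stk3 (1.39, edgeR adjusted p = 1.56e-06), which encodes the Hippo kinase MST2, and Map4k4 (0.74, edgeR adjusted p = 6.05e-06), a kinase that acts on LATS.

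The cofactor gene Vgll3 and the cadherin genes Fat4 and Dchs1 of the same list had few or no counts in 4T1.2 and 4T1. The cofactor gene Vgll4 was still expressed there, at mean levels of 27.1 and 29.5 CPM. It was also lower than in 66cl4 (46.9 CPM) and 67NR (41.5 CPM), with a pooled log2 fold change of -0.64 (edgeR adjusted p = 8.69e-04). Vgll3, whose product competes with YAP for TEAD, had 10, 14, 0 and 1 counts in the libraries of 4T1.2 and 4T1 and 4432, 4916, 2992 and 4656 in those of 66cl4 and 67NR. Fat4, an atypical cadherin, had 0 counts in all 4 libraries of 4T1.2 and 4T1, which puts it at least 189-fold lower, taking a floor of 3 counts per library and counting error only. Dchs1, which encodes the ligand of FAT4, had 1, 1, 2 and 4 counts against 73, 51, 181 and 261. Between 66cl4 and 67NR, 9 of the regulators were higher and 2 lower (44%, beside 44.6% of all genes), and between 4T1.2 and 4T1, 2 were higher and none lower (8%, beside 19.3%, with 5 higher and 0 lower at an unadjusted p under 0.05).

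Further target genes were taken from a published YAP/TAZ signature without the 10 genes, 18 in all with 16 tested (Igfbp3 and Fjx1 were not). Of these, 5 were higher and 10 lower in 4T1 and 4T1.2 (93.8%, beside 76.7%), and their median log2 fold change was -0.69. Tgfb2, a TGF-beta ligand (2.55), Nt5e, which encodes the ectonucleotidase CD73 (2.22), and Gadd45a, a stress-response gene (1.11), were higher. Foxf2, a forkhead factor, had 0 counts in 4T1.2 and 4T1 and was at least 277-fold lower. Rbms3 had 3, 3, 3 and 0 counts against 1710, 1589, 1067 and 1793, and F3, which encodes tissue factor, had a log2 fold change of -2.51. Between 66cl4 and 67NR, 9 were higher and 1 lower (62.5%, beside 44.6%), with F3 and Nt5e both at 1.82. Between 4T1.2 and 4T1, 0 of the 16 passed edgeR's test (beside 19.3% of all genes), 2 had an unadjusted p under 0.05, and DESeq2 and limma-voom also called 0, while leaving out replicate 1 of 4T1 gave 3. The kinase gene Lats2 (-0.65) and Ptpn14 (-1.22) stood in both lists.

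The other genes of the CCN family did not share one direction. Ccn3 had 134, 138, 206 and 145 counts in the libraries of 4T1.2 and 4T1 and 2, 4, 0 and 0 in those of 66cl4 and 67NR. Ccn4 was also higher in 4T1 and 4T1.2 (log2 fold change 0.93, SE 0.07, edgeR adjusted p = 8.10e-07), Ccn5 was lower (-1.79, SE 0.16, edgeR adjusted p = 3.83e-06), and Ccn6, with 9 to 28 counts in a library, did not pass the test (0.42, SE 0.24, edgeR adjusted p = 0.137). In the same pooled comparison Ccn1 was lower and Ccn2 was higher (log2 fold change 0.55). In the comparisons of single lines, Ccn2 in 4T1.2 and in 4T1 was higher than in 67NR and not higher than in 66cl4.

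Cytoskeletal genes driven by MRTF and SRF, which share several targets with YAP/TEAD, were counted beside them. Of 12 genes, 1 was higher and 5 were lower in 4T1 and 4T1.2 (50%, beside 76.7%), with a median log2 fold change of -0.04. The lower genes included Acta2 (-3.81), Actg2 (-3.41) and Tpm2 (-3.14), which encode smooth muscle actins and a tropomyosin. However, Acta2 was at 3.41 CPM or less and Actg2 at 3.69 CPM or less in every line. Between 66cl4 and 67NR, 11 of the 12 were higher and none lower (91.7%, beside 44.6%, and none lower at an unadjusted p under 0.05), with a median of 0.99. Examples chosen after their values were seen were Srf itself (0.96, edgeR adjusted p = 6.36e-05) and Vcl, which encodes vinculin (1.17, edgeR adjusted p = 8.11e-06). Between 4T1.2 and 4T1, 2 were higher and 3 lower (41.7%, beside 19.3% of all genes).

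**Figure D4:**
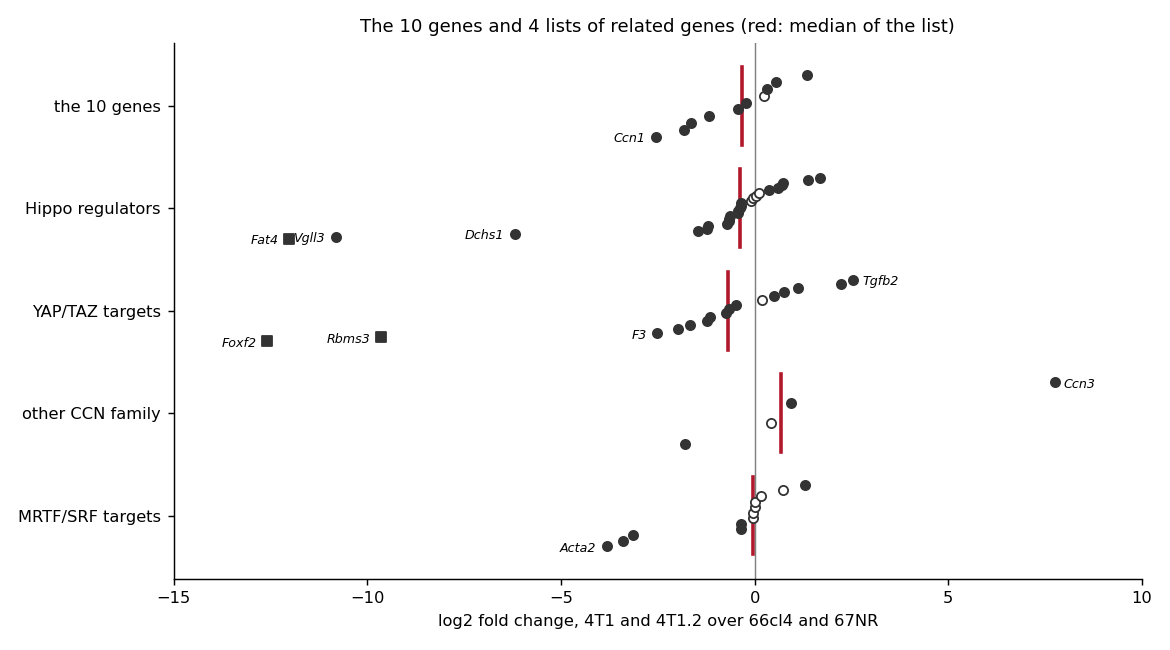
Log2 fold change of 4T1 and 4T1.2 over 66cl4 and 67NR (horizontal axis) for the 10 genes and 4 lists of related genes (vertical axis). Filled symbols passed an adjusted p under 0.05 and open ones did not, squares mark genes with at most 3 counts in every library of the lower group, for which the fitted value is no bound, and red bars are medians (-0.39 for Hippo regulators and -0.69 for YAP/TAZ targets).

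Finally, the position of each gene was considered, since neighbouring genes can move together in tumour lines. All 10 of the nearest tested genes around Ankrd1 were also lower in 4T1 and 4T1.2 (beside 38.6% of all genes), with a median log2 fold change of -1.13 beside -1.19 for Ankrd1. Between 66cl4 and 67NR, 5 of these neighbours were higher and 2 lower (beside 22.3% and 22.4% of all genes). Their median there was 0.27, beside 1.23 for Ankrd1. Around Yap1, 9 of 10 were higher in the pooled comparison (beside 38.1% of all genes), and the median of the 10 was 1.45, above the 0.32 of Yap1 itself. Of the 10 around Tead1, 7 were lower and 1 was higher (beside 38.6% and 38.1% of all genes), with a median of -0.66 beside -0.43 for Tead1. For Wwtr1, Tead4 and Ccn2 the medians of the neighbours were 0.13, -0.39 and -0.12, opposite in sign to the value of each gene. Wwtr1 and Ccn1 lie on chromosome 3, whose 668 tested genes had a median of -0.59 between 66cl4 and 67NR, beside 0.00 for all genes. The 10 neighbours of Ccn1 had a median of -0.57 there, whereas Ccn1 was higher by 0.65. Of these neighbours, 6 were lower and 0 higher (edgeR, beside 22.4% and 22.3% of all genes). Around Tead2, Tead3, Ccn1 and Amotl2, the medians of the neighbours in the pooled comparison lay between -0.21 and 0.26, well short of the values of the genes themselves. The part of position in these results was not tested.

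**Figure D5:**
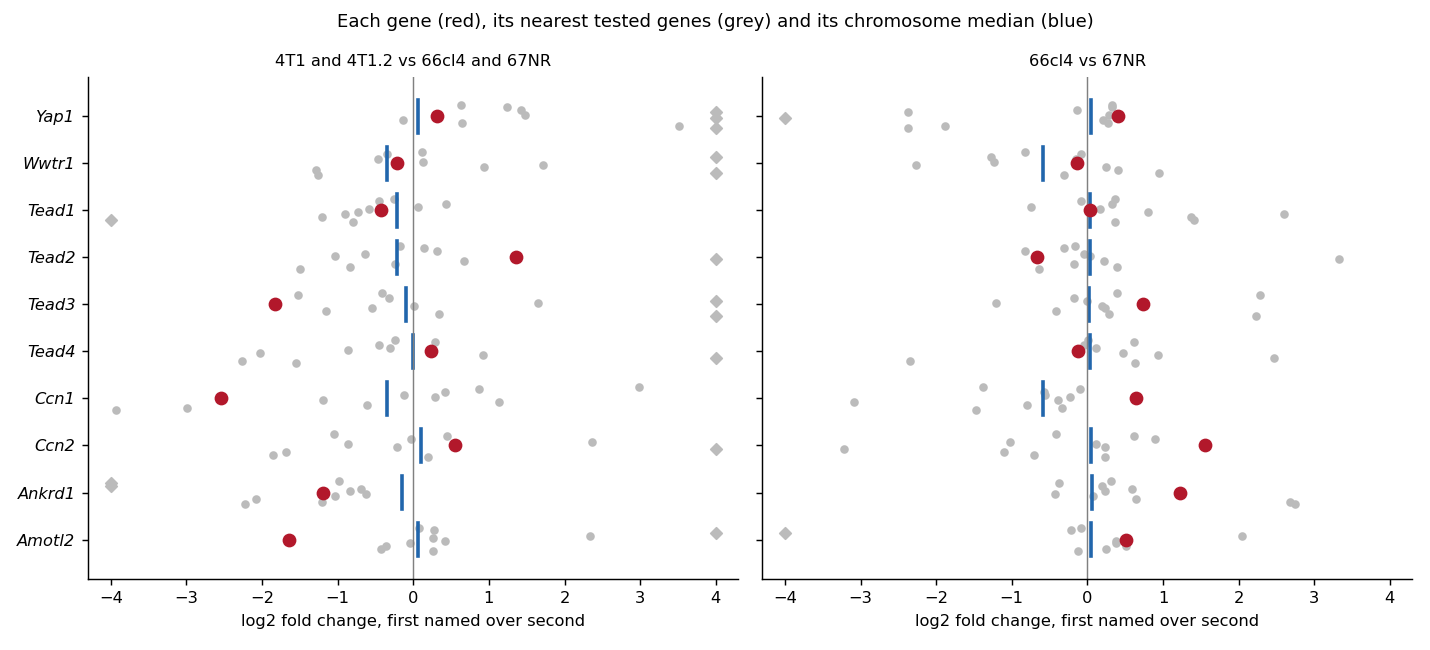
Log2 fold change (horizontal axis) of each of the 10 genes (red), of the 5 nearest tested genes on either side (grey) and the median of its chromosome (blue bar), in the pooled comparison and between 66cl4 and 67NR. Grey diamonds are neighbours beyond a log2 fold change of 4, drawn at the edge. The neighbours of Ankrd1 all lie left of 0 in the pooled comparison (median -1.13), and Ccn1 and Wwtr1 share a chromosome median of -0.59 between 66cl4 and 67NR.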

How the data were processed

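RNA was prepared with Illumina's TruSeq RNA v2 protocol. The authors used Rsubread for alignment to mm10 (GRCm38) and featureCounts for counting per Entrez gene, and deposited raw counts without normalization. Identifiers were matched to RefSeq (25275 of 27179, 93.0%). After edgeR's filterByExpr (15269 genes), ribosomal and predicted genes and unmatched identifiers were removed, leaving 13913. The removed and the filtered genes together held 5.39% to 8.00% of a library's counts. Comparisons used the quasi-likelihood test of edgeR 4.0.16 in R 4.3.3 (limma 3.58.1 for voom), on TMM-scaled libraries, with a mean per line over all 8, Benjamini-Hochberg adjustment and a threshold of 0.05. CPM and RPKM were computed from the counts with TMM-scaled library sizes. Likeness used log2(CPM + 0.5).

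The 10 genes and the lists were chosen with earlier results of these data known. From each list the text names up to 3 genes higher and 3 lower in the pooled comparison, those with the largest fitted change among genes passing the test without overlap of libraries. Values of Vgll4, Lats2, Ptpn14, Ccn6, Srf and Vcl are given beyond this rule. Counts were simulated for the 13913 genes with the spread of each gene set at the fitted trend. Among genes not low in counts, 100 were changed 2-fold and 100 4-fold, and all others had the same mean in every line. The pooled comparison recovered 100 of 100 genes changed 2-fold, with 15 false calls. For 4T1.2 against 4T1, 99 of 100 were recovered, with 7 false calls. In the data 76.7% of genes differed in the pooled comparison, so the simulation does not give the rate of false calls there. Replicates differed beyond sampling noise and each was counted. The chi-square per degree of freedom between replicates was 75.43 in 4T1, 68.98 in 4T1.2, 58.14 in 66cl4 and 10.32 in 67NR. The fit nevertheless used 1 spread per gene for all 4 lines. Alternatives were other size factors, filters and fits, DESeq2 1.42.0, limma-voom, a replicate block and leaving out each library. Sequences came from RefSeq (GRCm38.p6). Intervals on floors cover counting error only.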

Additional observations from a re-analysis of the deposited data

How the results depend on the processing

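Of 1180 values of the 10 genes under the alternatives, 1113 kept their direction and side of the threshold, 25 lost a call, 26 gained one and 16 turned direction, and 45 of 70 results held under every alternative. Those that turned were small differences. Leaving out one library gave -0.01 to 0.18 for Yap1 between 4T1.2 and 4T1, and -0.03 to 0.18 between 4T1 and 66cl4. Wwtr1 between 4T1 and 66cl4 ran from -0.08 to 0.06 leaving out a library (0.01 without either 4T1.2 library, 0.03 without replicate 2 of 4T1), and was 0.01 with no filter or at least 10 counts in every library and 0.02 with no removal by annotation. Tead1 ran from -0.43 to 0.13 between 4T1.2 and 4T1, both ends from leaving out a 4T1 library, and from -0.02 to 0.08 between 66cl4 and 67NR. Tead4 ran from -0.06 to 0.46 between 4T1.2 and 4T1, and in 4T1 from -0.07 to 0.46 against 66cl4 and from -0.19 to 0.33 against 67NR, the ends again from leaving out a 4T1 library. Ccn2 between 4T1.2 and 66cl4 ran from -0.18 to 0.12 (0.11 without replicate 2 of 66cl4). The cause was not tested.

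Counts moved mainly between 4T1.2 and 4T1. Of the 10 genes, 3 were called, but 0 to 5 when one library was left out (0 without replicate 1 of 4T1.2, 1 without either 67NR library, 5 without replicate 2 of 4T1), 1 with only the libraries compared and 5 with DESeq2. Of the Hippo regulators, 2 were called, but 1 to 5 leaving out a library, 1 with at least 10 counts or only the libraries compared, and 4 with DESeq2. YAP/TAZ targets gave 0 to 3 leaving out a library. MRTF/SRF targets gave 5, with 2 to 5 leaving out a library and 3 with at least 10 counts or only the libraries compared. All genes gave 2681, with 1372 to 3104 leaving out a library and 1726 with only the libraries compared. Between 66cl4 and 67NR, Hippo regulators gave 11, with 6 to 11 leaving out a library and 7 with at least 10 counts. In the pooled comparison, MRTF/SRF targets gave 6, and 3 of 8 tested with at least 10 counts.

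Deviations of same-numbered replicates correlated at -0.12 to 0.27 between lines, not above 0.1 in every pair, and the labels tie the numbers to no shared batch, so the libraries were not treated as paired. With the replicate block, the Hippo regulators called between 4T1.2 and 4T1 went from 2 to 4, and all genes called from 2681 to 2879 there, from 6210 to 6415 between 66cl4 and 67NR and from 10676 to 10788 in the pooled comparison. A shared effect of the number was not excluded. With 2 replicates per line, small differences such as those of Tead1, Tead4 and Wwtr1 are the least certain.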
